A study of Homo sapiens with 4 samples.

Results

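DNA methylation was examined over 8 genes of the maturing red cell: ALAS2, SLC25A37, TFRC, SLC4A1, ANK1, EPB42, AHSP and HEMGN. They serve heme synthesis, iron uptake, the membrane or hemoglobin assembly, except HEMGN, which codes for a nuclear protein. The 8 were named as genes of the maturing red cell, with earlier results of these data known, among 19970 protein-coding genes on chromosomes 1 to 22 and X. For each gene, all CpGs in the annotated gene plus 5 kb on either side were taken. HUDEP-2 cells, erythroid precursors immortalised from human cord blood, were profiled by whole-genome bisulfite sequencing. Bisulfite leaves methylated cytosine reading as C and makes unmethylated cytosine read as T, so the methylation level is the percent of reads with C. There were 4 libraries, 1 per group. The first group was untreated and not differentiated. The other groups were differentiated, through 4 days of growth and 2 days of maturation, with an inhibitor of DNMT1, an inhibitor of EED, or the vehicle DMSO alone. The labels' protocols place the compounds in 0.1% DMSO from the expansion culture on, and doxycycline was in the medium of every stage. Compound names and doses are not given in the sources used here.

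A maturing erythroblast takes up transferrin-bound iron through the transferrin receptor, TFRC, and carries it into mitochondria through mitoferrin-1, SLC25A37. There ALAS2, the erythroid form of 5-aminolevulinate synthase, starts heme synthesis. The membrane is held by a vertical link in which the anion exchanger band 3, SLC4A1, and protein 4.2, EPB42, are tied by ankyrin, ANK1, to the spectrin skeleton. AHSP is the chaperone of free alpha-globin, and HEMGN is a nuclear protein of blood precursors. DNMT1 copies CpG methylation onto newly made DNA, and EED belongs to PRC2, the Polycomb enzyme that places methyl groups on histone H3. Active promoters usually lack CpG methylation, while the bodies of transcribed genes usually carry it. No RNA was measured here, so whether these genes were on in each library was not tested.

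The genes fell into 2 kinds by the CpG content of the promoter, a window that begins 1000 bp before the start of the main transcript (MANE Select) and ends 500 bp after it. The hg38 sequence had 10 CpGs there in ALAS2, 26 in SLC4A1, 19 in EPB42, 7 in HEMGN and 22 in AHSP, against a median of 80 over all 19970 genes. ANK1 had 87, TFRC 101 and SLC25A37 109. The 250 bases upstream of the start show the contrast for the promoters that RefSeq (GRCh38.p14) lists and that are printed here. Letters run 5′ to 3′ along the gene, and capitals mark CpGs.
ALAS2, chrX:55030978-55031227, minus strand: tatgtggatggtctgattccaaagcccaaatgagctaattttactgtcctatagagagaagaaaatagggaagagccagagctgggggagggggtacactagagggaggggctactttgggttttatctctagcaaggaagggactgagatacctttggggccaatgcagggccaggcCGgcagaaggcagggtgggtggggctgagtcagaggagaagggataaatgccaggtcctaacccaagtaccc
EPB42, chr15:43221019-43221268, minus strand: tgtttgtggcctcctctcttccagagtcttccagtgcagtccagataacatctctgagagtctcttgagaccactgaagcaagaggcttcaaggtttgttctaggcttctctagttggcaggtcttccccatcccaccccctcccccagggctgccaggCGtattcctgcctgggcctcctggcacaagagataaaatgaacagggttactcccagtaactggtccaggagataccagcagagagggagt
HEMGN, main start, chr9:97938173-97938422, minus strand: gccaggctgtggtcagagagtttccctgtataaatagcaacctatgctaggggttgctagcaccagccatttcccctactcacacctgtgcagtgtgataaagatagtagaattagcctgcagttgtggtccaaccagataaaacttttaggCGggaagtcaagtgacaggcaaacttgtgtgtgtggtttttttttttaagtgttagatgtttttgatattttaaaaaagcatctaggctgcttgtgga
HEMGN, upstream start, chr9:97944853-97945102, minus strand: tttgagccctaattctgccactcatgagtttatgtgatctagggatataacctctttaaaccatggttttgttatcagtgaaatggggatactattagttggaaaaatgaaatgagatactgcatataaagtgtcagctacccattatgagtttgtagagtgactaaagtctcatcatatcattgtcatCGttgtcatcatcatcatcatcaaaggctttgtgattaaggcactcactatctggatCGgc
TFRC, chr3:196082091-196082340, minus strand: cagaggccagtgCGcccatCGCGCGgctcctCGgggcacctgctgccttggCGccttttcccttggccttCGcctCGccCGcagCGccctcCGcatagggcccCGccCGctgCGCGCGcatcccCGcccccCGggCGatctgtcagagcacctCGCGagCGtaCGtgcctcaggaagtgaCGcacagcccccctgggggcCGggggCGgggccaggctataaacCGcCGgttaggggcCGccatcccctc
The ALAS2, EPB42 and main HEMGN promoters held 1 CpG each, the upstream HEMGN promoter 2 and the TFRC promoter 29, against a median of 11 over 35116 RefSeq promoters. GATA1, the main erythroid transcription factor, binds GATA motifs. AGATAA or TGATAA, searched on both strands, lay in the printed stretch of ALAS2 (AGATAA at -127 bp, opposite strand), of EPB42 (AGATAA at -208 and -61 bp), of the main HEMGN start (TGATAA at -155 and AGATAA at -114 bp) and of the upstream HEMGN start (TGATAA at -179 bp, opposite strand). No match lay in TFRC. Either motif occurs in 14.6% of all RefSeq promoters of this length. CCACACCC and CCACGCCC, motifs of the KLF1 type, were searched as these exact letters and in no other form. They were in none of the 5 printed stretches and in 7.46% of all promoters. These matches describe letters only.

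Depth was similar in the 4 libraries, with a mean coverage of 27.2 to 29.7 reads per listed CpG and 23269121 CpGs listed in all 4. Only these shared CpGs enter the levels below unless stated. The 8 genes held 7442 of them. As a check of the cell type, promoters of the erythroid markers KLF1, HBB, RHAG and EPOR were at 2.12%, 15.2%, 23.6% and 50.5% in the DMSO library. The 6 erythroid markers had a median of 19.4% (range 0 to 50.5%), and 3 of the 6 were at 20% or less. Promoters of 14 T cell, B cell, myeloid and megakaryocyte markers had a median of 56.8% (range 18.7% to 78.2%), and 1 of the 14 was at 20% or less. The ranges thus overlapped. Each group had a single library, so no spread between replicates could be measured. Where 4 levels stand in a row, their order is non-differentiated, vehicle, DNMT1 inhibitor, EED inhibitor. Each Fisher's exact test below compares the reads of 2 libraries, not 2 conditions, and 95% intervals cover counting error only. Reads were summed over CpGs, so a read that covers several CpGs counts at each of them. Intervals, limits and p-values treat these counts as independent, so they can be too narrow or too small. A level between 0 and 100% can come from a mixture of cells or of alleles within a cell, and these cannot be told apart. A call needed an adjusted p under 0.01 over all genes, windows or CpGs tested, and a difference of at least 25 percentage points.

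Heme synthesis and iron supply came first. ALAS2 (ENSG00000158578.21) lies on the minus strand at chrX:55009055-55030977. Of its 10 promoter CpGs 3 were shared, all 428 to 685 bp upstream. Their level was 80.0% in the non-differentiated library (95% Wilson interval 66.2 to 89.1, 45 reads), 67.9% with DMSO (54.5 to 78.9, 53 reads), 2.78% with the DNMT1 inhibitor (0.765 to 9.57, 72 reads) and 65.8% with the EED inhibitor (49.9 to 78.8, 38 reads). With 3 CpGs this promoter was under the minimum of 5 and was not tested. Closer to the start the picture differed. Of the CpGs within 300 bp of it, which had too few reads to be shared, 3 were listed in the non-differentiated library with 0 of 38 reads methylated, which allows up to 7.89% (for a count of 0, here and elsewhere, 3 reads of the total, a limit for counting error that is not the Wilson bound). The DMSO library listed 2 with 0 of 20 reads, which allows up to 15%, and the DNMT1 inhibitor library 2 with 0 of 21 reads, which allows up to 14.3%. These 2 CpGs lie 11 and 15 bp downstream of the start, with 10 reads each in the DMSO library. The same reads may be counted at both, so the true limits may be higher. The EED inhibitor library listed none. So the ALAS2 window was methylated at its upstream end and unmethylated, as far as these reads reach, at the start itself. Intron 1, where ALAS2 is known to have an erythroid GATA1-bound enhancer, was also low. Its 5 shared CpGs read 15.6%, 9.52%, 1.43% and 7.59%, and 4 of them, 1146 to 1832 bp downstream of the start, were at 0 to 7.14% in all 4.

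SLC25A37 (ENSG00000147454.14, plus strand, chr8:23528956-23575463) had an unmethylated CpG-rich promoter in all 4 libraries. Over 40 shared of 109 CpGs its level was 0.620% in the non-differentiated library, 0.122% with DMSO, 0 of 910 reads with the DNMT1 inhibitor (which allows up to 0.330%) and 0.554% with the EED inhibitor. The DNMT1 inhibitor minus DMSO difference was -0.122 points, and its 95% interval of -0.689 to 0.310 held 0. The unmethylated stretch reached far past the window. Runs of neighbouring CpGs at 30% or less in the non-differentiated library were used to mark such stretches, so the level in that library was part of the choice. The run of 96 CpGs at SLC25A37 covered 4379 bp, from -1302 to 3075 bp, and was at 2.44%, 2.48%, 0.200% and 1.75%.

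TFRC (ENSG00000072274.14, minus strand) spans chr3:196012511-196082153. Its promoter window holds 101 CpGs, of which 12 were shared, 11 of them more than 300 bp upstream. Their level was 30.7% (95% interval 25.7 to 36.3) in the non-differentiated library, 29.4% (24.2 to 35.3) with DMSO, 6.03% (4.01 to 8.96) with the DNMT1 inhibitor and 25.7% (21.3 to 30.5) with the EED inhibitor. Single CpGs were uneven there: those at -538, -550 and -953 bp were at 78.3% to 95.8% with DMSO, and those at -343 and -290 bp were at 0%. Within 300 bp of the start every listed CpG was unmethylated, with 0 of 13 reads in the non-differentiated library (which allows up to 23.1%), 0 of 124 with DMSO (up to 2.42%), 0 of 122 under the DNMT1 inhibitor (up to 2.46%) and 0 of 168 under the EED inhibitor (up to 1.79%). From 522 to 4659 bp downstream, inside intron 1, TFRC had a run of 99 unmethylated CpGs at 0.260%, 0.290%, 0.0681% and 0.174% in the same order. The 29.4% of the window thus described the upstream edge of a wide unmethylated region, and not its centre.

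The membrane genes differed among themselves. SLC4A1 (ENSG00000004939.16, minus strand, chr17:44248390-44268141) had the most methylated promoter window of the 8 genes. Its 7 shared of 26 CpGs read 90.7% (95% interval 83.8 to 94.9) in the non-differentiated library, 83.5% (75.6 to 89.2) with DMSO, 10.3% (6.33 to 16.3) with the DNMT1 inhibitor and 87.1% (80.6 to 91.7) with the EED inhibitor. In the DMSO library 95.4% of the 18118 tested promoters were under the SLC4A1 level. None of the 7 CpGs lay within 300 bp of the start. There the libraries listed different CpGs, 3, 2, 5 and 11 of them, at 45.9% of 37 reads, 18.2% of 22 reads, 4.35% of 69 reads and 17.7% of 130 reads, so these values are given side by side and not compared. Downstream, from 1198 to 1969 bp in intron 1, a run of 6 CpGs was at 4.63% in the non-differentiated library, 0.735% with DMSO, 0% under the DNMT1 inhibitor and 0.699% under the EED inhibitor.

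ANK1 (ENSG00000029534.22, minus strand) is the longest of the genes, at chr8:41653220-41896741, and its main start lies inside that span. The main promoter, with 60 shared of 87 CpGs, was unmethylated in all 4 libraries, at 0.476%, 0.226%, 0.133% and 0.200% of 1261 to 1508 reads. A run of 130 CpGs over 4779 bp, from -1470 to 3307 bp, held it, at 2.44%, 4.08%, 0.246% and 3.47%. EPB42 (ENSG00000166947.15, minus strand, chr15:43197227-43221018) had few CpGs and a low level, above that of ANK1 in every library but the one with the DNMT1 inhibitor. Its 17 shared of 19 CpGs read 3.99% in the non-differentiated library, 4.31% with DMSO, 0 of 369 reads with the DNMT1 inhibitor (which allows up to 0.813%) and 3.47% with the EED inhibitor. Most of the methylated EPB42 reads came from 1 CpG at -850 bp, at 75.0%, 44.4%, 0% and 40% of 16 to 21 reads, while the CpGs from -647 to 452 bp were at 0% with DMSO. The low run of EPB42 held 18 CpGs over 1728 bp, from -647 to 1079 bp.

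AHSP (ENSG00000169877.10, plus strand, chr16:31527900-31528803) and HEMGN (ENSG00000136929.13, minus strand, chr9:97926791-97944856) both had a sharp edge upstream of an unmethylated start. In AHSP 20 of 22 promoter CpGs were shared. The window level was 37.8% (95% interval 33.4 to 42.4) in the non-differentiated library, 49.2% (45.3 to 53.1) with DMSO, 2.88% (1.81 to 4.57) with the DNMT1 inhibitor and 42.5% (38.7 to 46.4) with the EED inhibitor. Its 12 CpGs from -865 to -322 bp were at 65.7%, 70.2%, 4.33% and 65.2%, and the 8 from -275 to 438 bp were at 1.05%, 0.532%, 0% and 0%. The unmethylated part went on through the whole gene. The run of 38 low CpGs spanned 2378 bp, from -275 to 2101 bp, past the 3′ end of this 904 bp gene, and the 7 CpGs of the gene body were at 0.585% in the non-differentiated library and at 0 of 142 reads with DMSO, which allows up to 2.11%. HEMGN, with all 7 promoter CpGs shared, read 10.7% (7.16 to 15.6), 10.2% (6.82 to 14.9), 0 of 293 reads (which allows up to 1.02%) and 6.99% (4.35 to 11). A single HEMGN CpG at -687 bp carried nearly all of this, at 78.6%, 80.8%, 0% and 69.6% of 23 to 31 reads, and the other 6, from -463 to 321 bp, were at 0.526% together with DMSO.

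**Figure D1:**
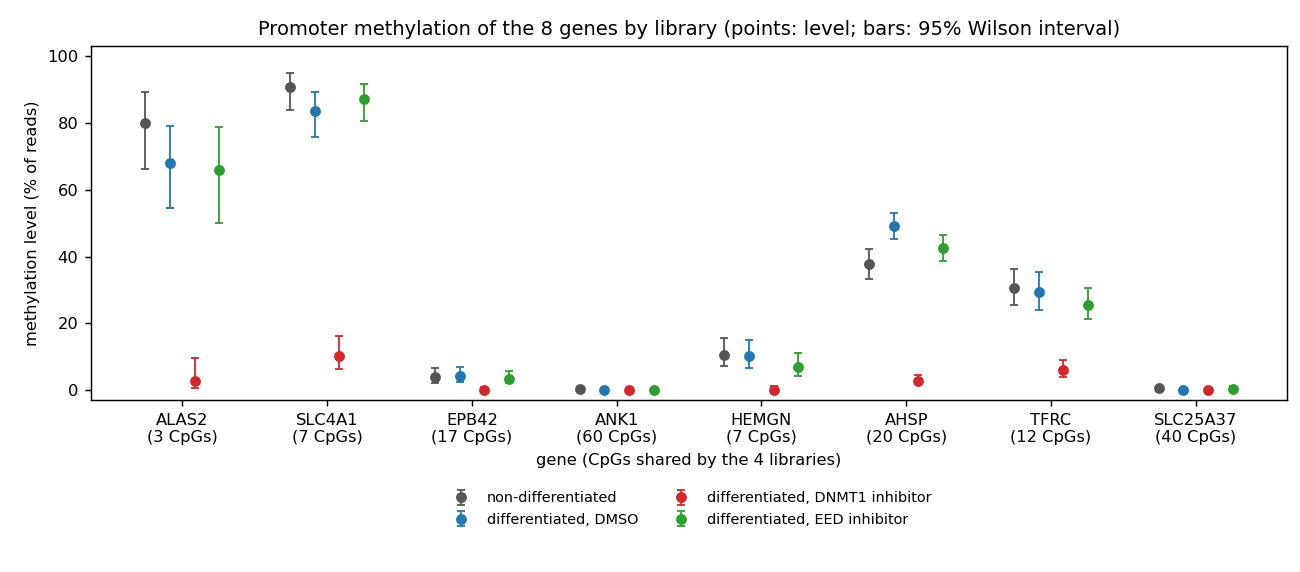
Promoter methylation level (percent of reads, vertical axis) of each gene (horizontal axis, with its number of shared CpGs) in the 4 libraries; points are levels and bars are 95% Wilson intervals of counting error. ANK1 and SLC25A37 sit under 1% in all 4 libraries, while SLC4A1 goes from 83.5% with DMSO to 10.3% with the DNMT1 inhibitor.

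**Figure D2:**
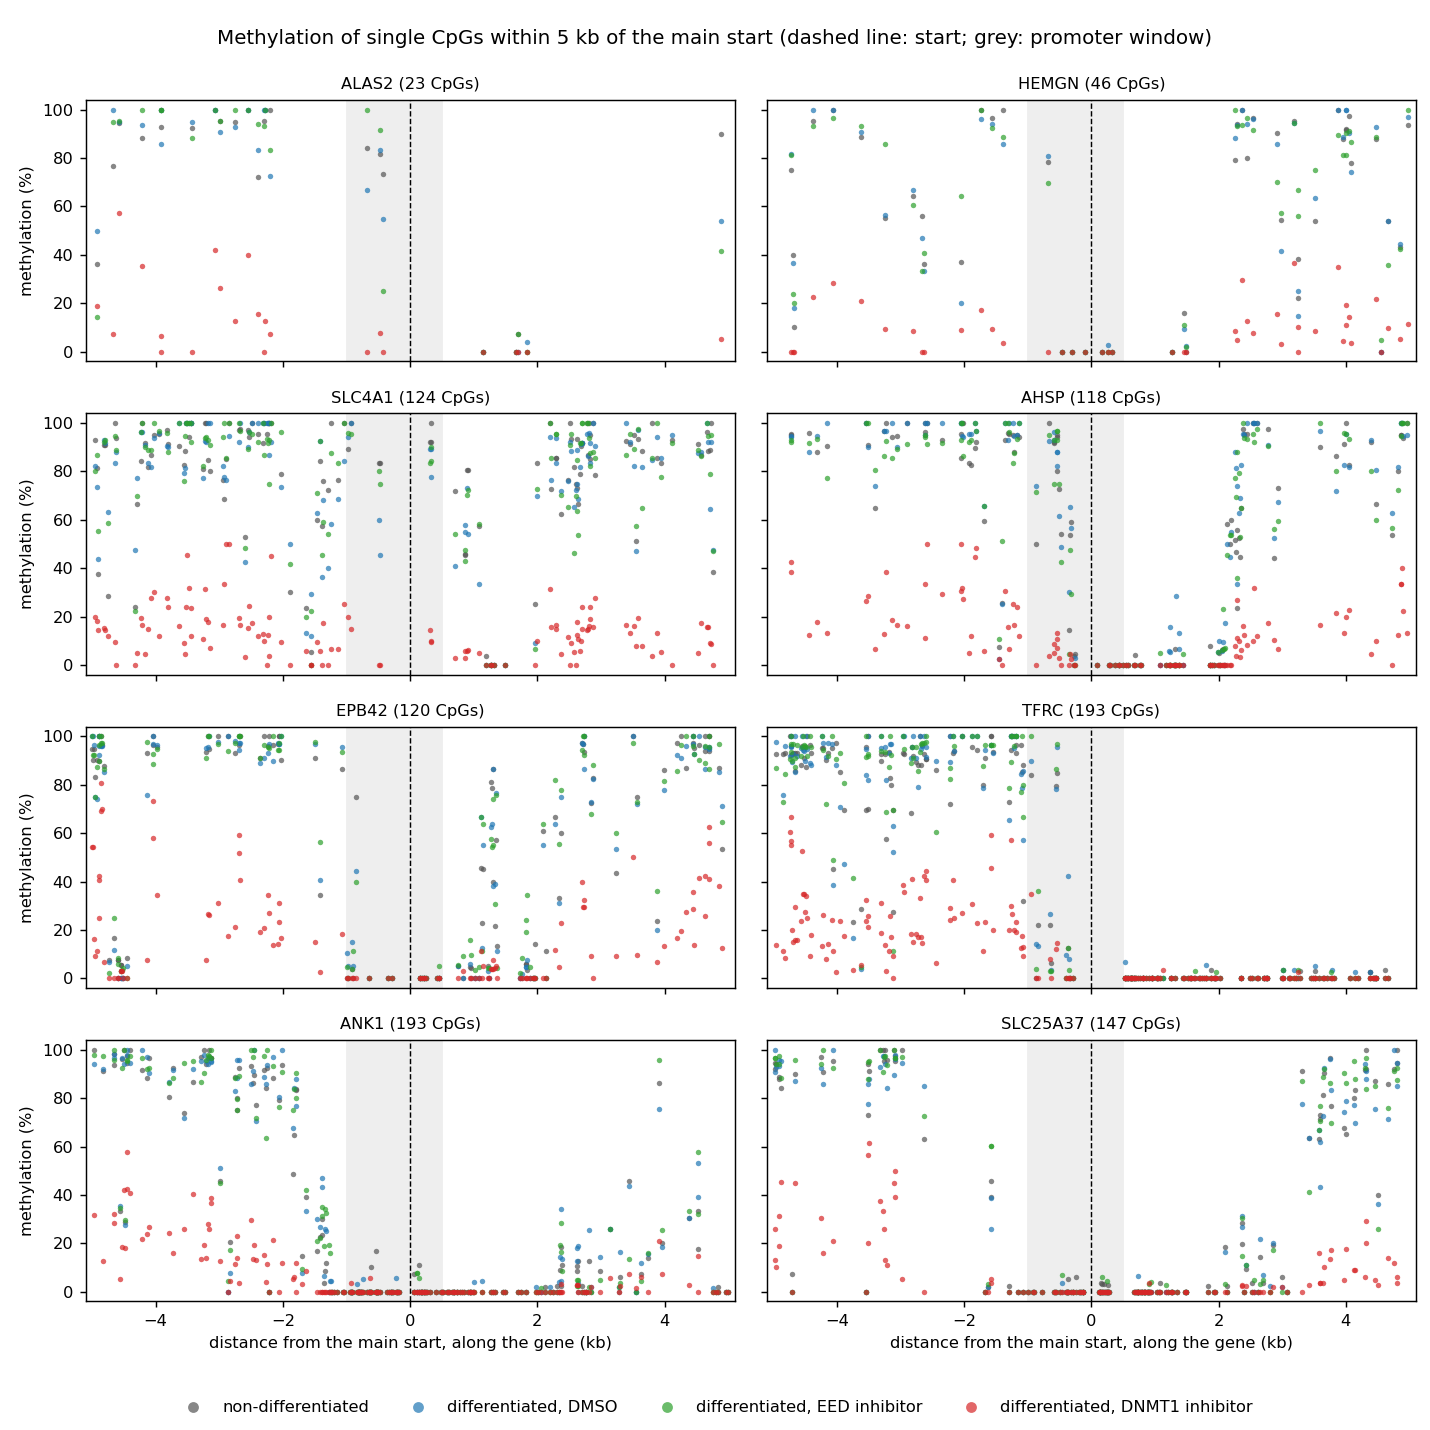
Methylation of each shared CpG (percent of reads, vertical axis) against its distance from the main start along the gene (kb, horizontal axis), with 1 panel per gene and 1 colour per library. The dashed line is the start and the grey band the promoter window; low CpGs surround the start and reach into intron 1 in ANK1, TFRC and SLC25A37, and red points, the DNMT1 inhibitor, lie lowest elsewhere.

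In 4 of the 7 promoters that could be tested the DMSO level was 20% or less, against 41.0% of the 18118 promoters of all genes. Their median was 10.2%, against 27.5% over all genes. In AHSP the methylated CpGs of the window lay more than 300 bp from the start. For SLC4A1 and TFRC this could not be read from the shared CpGs, of which SLC4A1 had 0 and TFRC 1 within 300 bp. Among all listed CpGs, those of TFRC within 300 bp were unmethylated in each library, as given above. For SLC4A1 the EED inhibitor library listed the most CpGs within 300 bp, 11 of them, at 17.7% of 130 reads. In that library the SLC4A1 CpGs from 300 to 1000 bp upstream were at 79.1% of 139 reads.

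Differentiation was examined by comparing the DMSO library with the non-differentiated library. The latter was untreated, so differentiation and the vehicle cannot be told apart in this comparison. None of the 7 tested promoters was called, where 0% of 18118 promoters were called in either direction, and 1 had an unadjusted p under 0.05 by Fisher's exact test, against 17.5% of all promoters. That promoter was AHSP, 11.4 points higher with DMSO (95% interval 5.38 to 17.3, adjusted p = 0.00885, Fisher's exact test), under the 25 points needed. When read totals were scaled down by the CpG count, its adjusted p was 1 by Fisher's exact test. The AHSP value moved with coverage: the 12 methylated upstream CpGs had a mean of 20.9 reads in the non-differentiated library and 36.3 with DMSO, while the 8 unmethylated CpGs had 23.9 and 23.5. As the plain mean of the 20 CpG levels AHSP was at 43.3% and 44%, a difference of 0.712 points. The SLC4A1 promoter was 7.26 points lower with DMSO, and its interval of -16.1 to 1.72 held 0. With equal weight per CpG the SLC4A1 difference was -12.0 points. ALAS2 was 12.1 points lower on 3 CpGs, also with 0 inside its interval of -28.3 to 5.58.

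Gene bodies, taken as the annotated gene without the promoter window, were close in level without differentiation and after differentiation with DMSO. In the non-differentiated and DMSO libraries they read 82.9% and 81.6% for ALAS2, 82.1% and 80.4% for SLC25A37, 72.3% and 70.9% for TFRC, 76.9% and 76.3% for SLC4A1, 76.0% and 75.4% for ANK1, 84.0% and 81.3% for EPB42, and 76.1% and 75.5% for HEMGN. AHSP, with 7 body CpGs, was under the minimum of 10 and was not tested. None of the 7 tested bodies was called (0% of 18464 gene bodies in either direction), and 4 had an unadjusted p under 0.05 in Fisher's exact test, against 52.2% of all gene bodies. All 7 differences were below 0, from -2.69 points in EPB42 to -0.594 points in HEMGN, but so were those of 85.0% of all gene bodies, whose median was -1.13 points. In ALAS2, SLC4A1 and HEMGN the sign turned when each CpG was given equal weight, and EPB42 was then at -0.0907 points. With CpGs of at least 20 reads SLC4A1 was at -4.78 points (adjusted p = 0.00511, Fisher's exact test). With 5 kb added on either side HEMGN was at -5.19 points (adjusted p = 7.06e-08, Fisher's exact test). Both values were under 25 points. The added HEMGN flank held a run of 78 unmethylated CpGs, with 1594 reads in the non-differentiated library and 2018 with DMSO. Whether this difference in coverage moved the HEMGN value was not tested. Of the 499 windows of 1 kb in the 8 genes none was called, where 0.000864% of 2431792 windows were called lower and 0.000288% higher. An unadjusted p under 0.05 in Fisher's exact test was reached by 44, which is 8.82% against 8.31% of all windows. Of the 7442 CpGs none was called either (0% of all CpGs), and 164 had an unadjusted p under 0.05, which is 2.20% against 2.55% of all CpGs.

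The DNMT1 inhibitor library was set against the DMSO library, both from differentiated cells, to see how far methylation was lower. The compounds were present from the expansion culture on, so when methylation was lost cannot be told. The promoters of SLC4A1 and AHSP were lower, 2 of the 7 tested, against 43.7% of 18118 promoters called lower. SLC4A1 fell by 73.2 points (95% interval -80.1 to -63.3, adjusted p = 8.94e-35, Fisher's exact test) and AHSP fell by 46.3 points (-50.4 to -42.1, adjusted p = 4.92e-85, Fisher's exact test). With read totals scaled down by the CpG count, the adjusted p was 0.000195 for SLC4A1 and 0.000961 for AHSP (Fisher's exact test). TFRC was 23.4 points lower (adjusted p = 6.52e-15, Fisher's exact test), just under the 25 points needed. The TFRC value depended on the CpGs taken: it was -14.2 points over the 23 CpGs listed in both libraries, -10.8 points in a window from 500 bp upstream to 200 bp downstream, and -50.5 points in one from 2000 bp upstream. HEMGN was 10.2 points and EPB42 4.31 points lower, each with an adjusted p under 0.01 by Fisher's exact test and under 25 points. The HEMGN value also depended on the window: from 2000 bp upstream it was -33.1 points and was called (adjusted p = 2.34e-33, Fisher's exact test). In the main window SLC4A1, AHSP, TFRC, HEMGN and EPB42 had an unadjusted p under 0.05 in Fisher's exact test, which is 71.4% of the 7 against 88.0% of all promoters. The differences of ANK1 and SLC25A37 were -0.0929 and -0.122 points. ALAS2, not tested on its 3 CpGs, was 65.1 points lower (95% interval 50.1 to 76.3 lower). Over the CpGs listed in both libraries compared it had 5, could be tested and was called, 47.2 points lower (adjusted p = 1.33e-13, Fisher's exact test). In AHSP and HEMGN the CpGs that differed lay upstream, since those nearer the start had little or no methylation with DMSO. In SLC4A1 the shared CpGs lay on both sides, and the 3 CpGs from 319 to 333 bp downstream went from 77.8% to 89.5% with DMSO to 9.52% to 14.3% with the DNMT1 inhibitor.

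In gene bodies the loss was present in every gene tested. All 7 were called lower, where 96.6% of 18464 gene bodies were called lower. The level with the DNMT1 inhibitor was 12.9% for ALAS2 (95% interval 10.8 to 15.4, adjusted p = 2.86e-184, Fisher's exact test), 16.3% for SLC25A37, 17.8% for TFRC, 15% for SLC4A1, 17.3% for ANK1, 23% for EPB42 and 21.0% for HEMGN. These were differences of -68.7 points in ALAS2 to -53.1 points in TFRC, and the median of -58.3 points compares with -53.7 points over all gene bodies. Among 1 kb windows 458 of 499 were called lower, which is 91.8% against 81.3% of all windows. Among CpGs the count was 5899 of 7442, which is 79.3% against 63.6% of all CpGs. A window or CpG under 25% with DMSO cannot be called lower, so these shares also depend on the DMSO level. At 50% or more with DMSO were 430 of the 499 windows, against 1438317 of all 2431792, and ANK1 held 217 of the 430. How far this difference in starting level accounts for the higher shares was not tested. Windows with an unadjusted p under 0.05 in Fisher's exact test were 481 of the 499, which is 96.4% against 97.4% of all windows. ANK1 held 4284 of the 7442 CpGs, with 80.3% called lower, while the share was 54.9% in HEMGN and 66.7% in AHSP and 78.1% to 86.6% in the other 5 genes. None of the 7442 was called higher, against 4.3e-06% of all CpGs, and 83.7% had an unadjusted p under 0.05 in Fisher's exact test, against 73.6% of all CpGs. CpGs at 80% or more numbered 4939 in the non-differentiated library, 4895 with DMSO and 4974 with the EED inhibitor, and 5 with the DNMT1 inhibitor.

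**Figure D3:**
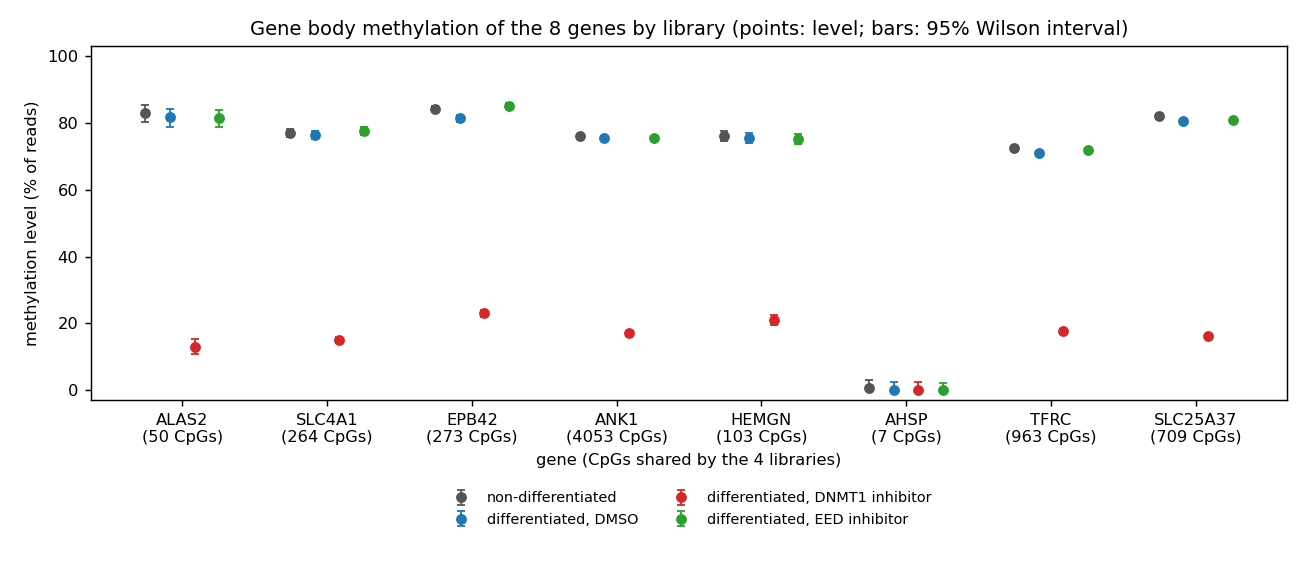
Gene body methylation level (percent of reads, vertical axis) of each gene (horizontal axis, with its number of shared CpGs) in the 4 libraries; points are levels and bars are 95% Wilson intervals of counting error. Bodies other than AHSP sit between 70.9% and 85.0% in 3 libraries and between 12.9% and 23% with the DNMT1 inhibitor, and AHSP is at 0 to 0.585% in all 4.

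The part of the DMSO level that was kept with the DNMT1 inhibitor differed between the genes. ALAS2 kept 15.8%, a share with 2.45% of 18168 gene bodies under it. This value rests on 50 of the 124 CpGs of a gene on chromosome X. Their mean coverage was 16.0 reads with DMSO and 16.3 with the DNMT1 inhibitor. SLC4A1 kept 19.6%, SLC25A37 20.3%, ANK1 22.9%, TFRC 25.1%, HEMGN 27.9% and EPB42 28.3%, beside a median of 26.6% over all gene bodies. The 100 kb on either side, beyond the flanks of 5 kb, kept 31.6% around ALAS2, 25.1% around SLC4A1, 26.1% around SLC25A37, 28.5% around ANK1, 31.0% around TFRC, 26.1% around HEMGN and 30.7% around EPB42. In 6 of the 7 genes the body thus kept less than its surroundings, HEMGN being the exception, as did 55.8% of all gene bodies. TFRC was a composite. Its main transcript was at 61.9%, 61.0%, 8.51% and 62.9%, and so kept 14.0%. The part of the annotated gene beyond the main transcript was at 81.7%, 80.3%, 26.2% and 80.6%, and kept 32.6%. ANK1 was more even, with 21.6% kept in the main transcript and 25.4% in the part of the gene upstream of the main promoter.

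**Figure D4:**
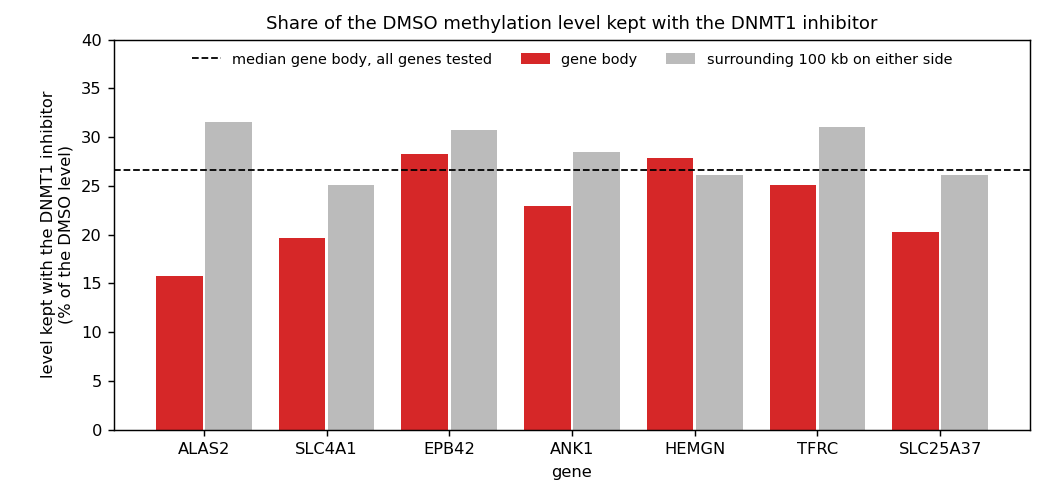
Share of the DMSO methylation level kept with the DNMT1 inhibitor (percent, vertical axis) for the gene body and for the 100 kb on either side of each gene (horizontal axis); the dashed line is the median gene body of all genes, 26.6%. ALAS2 has the lowest body share, 15.8%, and HEMGN is the gene whose body share, 27.9%, lies above that of its surroundings, 26.1%.

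The share also varied within genes. Over the 430 windows of 1 kb that were at 50% or more with DMSO, the median share kept was 21.6%, against 25.8% over all such windows. In ALAS2 a window of 5 CpGs in intron 9 went from 94.4% with DMSO to 0% with the DNMT1 inhibitor. The AHSP window centred at -400 bp went from 57.8% to 3.48%. At the other end, 2 windows near the 3′ end of EPB42, which overlaps a long non-coding RNA gene, ENSG00000285117, went from 97.0% to 51.2% and from 94.4% to 45.7%. In TFRC the highest share was in the part beyond the main transcript, where a window went from 94.0% to 46.3%. HEMGN had a window 6672 bp downstream of its start that went from 87.4% to 42.0%. Windows of TFRC thus kept from 4.81% to 49.3% of their DMSO level, and those of ALAS2 from 0% to 34.5%. These are the extremes of 66 windows in TFRC and 15 in ALAS2, and the lowest windows held 3 and 5 CpGs. No intervals were computed for window shares, so counting error can be part of these ranges.

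The EED inhibitor was compared with DMSO in the same way. None of the 7 promoters was called, where 0.0221% of 18118 promoters were called higher and 0% lower, and 1 had an unadjusted p under 0.05 in Fisher's exact test, against 21.2% of all promoters. AHSP was 6.70 points lower (95% interval -12.1 to -1.21, adjusted p = 0.127, Fisher's exact test), TFRC 3.76 points lower and HEMGN 3.20 points lower, with the intervals of TFRC and HEMGN holding 0. The AHSP difference was -14.9 points over the 7 CpGs from 500 bp upstream to 200 bp downstream (adjusted p = 0.00726, Fisher's exact test) and -3.0 points with equal weight per CpG, all under 25 points. None of the 7 gene bodies was called (0% of 18464), and 2 had an unadjusted p under 0.05 in Fisher's exact test, against 37.0% of all gene bodies. Body levels with the EED inhibitor were 81.4% for ALAS2, 80.7% for SLC25A37, 71.8% for TFRC, 77.6% for SLC4A1, 75.3% for ANK1, 85.0% for EPB42 and 75.1% for HEMGN. EPB42 stood apart, 3.69 points higher than with DMSO (95% interval 2.41 to 4.97, adjusted p = 4.06e-07, Fisher's exact test), far under 25 points but above 97.4% of all gene bodies. The EPB42 body was at 84.0% in the non-differentiated library, 81.3% with DMSO and 85.0% with the EED inhibitor. The DMSO level was thus below both others, and it also enters the differentiation difference of EPB42. Which library accounts for the EPB42 difference cannot be told with 1 library per group. EPB42 intron 1 showed the same order, at 41.3% with DMSO and 49.9% with the EED inhibitor, against 46.7% in the non-differentiated library. With equal weight for each CpG the EPB42 difference was 1.42 points, and with read totals scaled down by the CpG count its adjusted p was 1 by Fisher's exact test. None of the 499 windows was called, where 0.0266% of all windows were called lower and 0.00592% higher, and 73 had an unadjusted p under 0.05 in Fisher's exact test, which is 14.6% against 12.6% of all windows. None of the 7442 CpGs was called (0.00374% of all CpGs lower, 0.000623% higher), and 3.92% had an unadjusted p under 0.05 against 5.46% of all CpGs.

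Several of these genes have other annotated starts, and methylation differed between the starts. ANK1 is known to use alternative promoters in different tissues. Over the same window around each of its 6 starts, the level was 0.226% with DMSO at the main start, 4.78% at the start 30145 bp downstream and 13.1% at the start at -98910 bp. At the starts 91443, 103693 and 132348 bp downstream it was 93.8%, 95.9% and 92.6%. In the same order the non-differentiated library had 0.476%, 3.69%, 12.7%, 92.1%, 96.8% and 92.8%, and the DNMT1 inhibitor library 0.133%, 0.622%, 3.84%, 20.8%, 19.5% and 19.7%. So ANK1 had 3 low and 3 highly methylated starts in both the non-differentiated and the DMSO library. The 3 highly methylated starts lie inside the main transcript, which as a whole was at 83.0% with DMSO. Whether they differ from the sequence around them was not tested. The HEMGN start at -6684 bp, whose promoter is printed above, was at 54.3%, 41.8%, 8.47% and 44.8% on 6 CpGs, well above the main HEMGN start. The TFRC start 5001 bp downstream was at 2.77%, 1.77%, 0% and 3.55%. In EPB42 the starts 5830 and 13779 bp downstream were at 92.1% and 94.6% with DMSO, and in ALAS2 the start 10544 bp downstream was at 96.7% on 4 CpGs. These starts too lie inside gene bodies, which were at 81.3% in EPB42 and 81.6% in ALAS2 with DMSO.

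**Figure D5:**
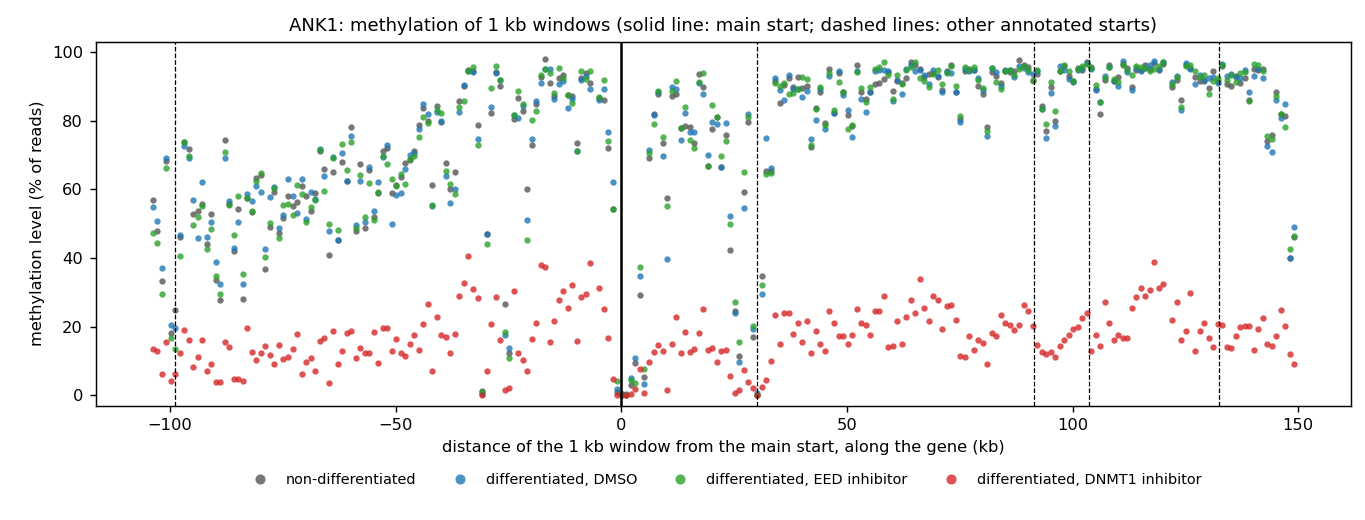
Methylation level of 1 kb windows over ANK1 (percent of reads, vertical axis) against distance from the main start along the gene (kb, horizontal axis) in the 4 libraries; the solid line is the main start and the dashed lines are the other annotated starts. Levels near 0 surround the main start and the start 30145 bp downstream, and the part upstream of the main promoter, at 64.2% with DMSO, lies below the main transcript, at 83.0%.

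ANK1 also differed in level along its length. The part upstream of the main promoter, with 1562 CpGs, was at 64.6%, 64.2%, 16.3% and 63.5%, and the main transcript, with 2491 CpGs, at 83.7%, 83.0%, 17.9% and 83.3%. Low runs within the annotated gene included 76 CpGs over 1199 bp at -31421 to -30224 bp, at 1.28% with DMSO, and 38 CpGs over 947 bp from 29248 to 30193 bp in intron 1, at 2.07% with DMSO. Intron 1 as a whole ranged widely. With DMSO it was at 0.290% in TFRC, 2.80% in HEMGN, 9.52% in ALAS2, 41.3% in EPB42, 55.8% in ANK1, 71.9% in SLC4A1 and 77% in SLC25A37, below the gene body level in each of these 7 genes. Intron 1 here includes the stretch inside the promoter window, which the gene body leaves out.

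Other genes of the same pathways were taken from a list of 62 genes of heme synthesis, iron transport, the membrane and erythroid enzymes, of which 61 were matched. For promoters 57 could be tested, with a median of 19.2% with DMSO. With the DNMT1 inhibitor 23 of the 57 were called lower, where 43.7% of all promoters were, and 0 higher. By class these were 5 of 8 genes of heme synthesis, 6 of 13 of iron and mitochondrial transport, 9 of 26 of the membrane and 3 of 10 of erythroid enzymes and remodelling. STEAP3, the erythroid ferrireductase, went from 87.7% to 11.2%. AQP1, a water channel of the red cell membrane, went from 86.4% to 16.1%, TRIM58, a ubiquitin ligase of late erythroblasts, from 74.7% to 10.2%, RHCE, a blood group protein, from 71.6% to 8.87% and CD47, a surface protein that restrains phagocytes, from 97.8% to 42.1%. None of the 57 was called on differentiation or with the EED inhibitor, where 12 and 9 had an unadjusted p under 0.05 in Fisher's exact test, against 17.5% and 21.2% of all promoters. Of 59 gene bodies 57 were called lower with the DNMT1 inhibitor, where 96.6% of all gene bodies were, and FTL and ICAM4, at 4.92% and 0.420% with DMSO, were the other 2. Large body differences were those of TSPO2, from 77.7% to 9.20%, STEAP3, from 89.9% to 22%, ALAS1, from 92% to 24.1%, and XK, from 84.4% to 20%. In the other comparisons 0 bodies were called, and 25 on differentiation and 18 with the EED inhibitor had an unadjusted p under 0.05 in Fisher's exact test, against 52.2% and 37.0% of all gene bodies.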

How the data were processed

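Whole-genome bisulfite libraries, 1 per group, were analysed from the tables deposited by the authors. Per the file headers each line holds the position of a CpG, its read count (coverage) and the percent of those reads that show C or T. Reads were trimmed with Trim Galore 0.6.7 and cutadapt 4.1, and the tools named with them are Bismark, Bowtie2 2.1.0, methylKit and build hg38, per the submitters' processing notes. The deposited tables join the reads of both strands at a CpG, and their lowest coverage count was 10, so thinly covered CpGs are missing. Whether duplicates were removed, and the conversion rate, are not given in the sources used here. Duplicates would make intervals too narrow, and incomplete conversion would raise levels.

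Methylated reads were recovered by rounding the percent times the coverage. Only CpGs listed in all 4 libraries were used, and a level is methylated reads over all reads, so deeper CpGs weigh more. Genes came from GENCODE 44. Promoters (at least 5 CpGs), gene bodies (at least 10), 1 kb windows (at least 3) and single CpGs were compared with two-sided Fisher's exact tests and Benjamini-Hochberg adjustment over all units of a kind within each comparison. With 1 library per group a group has no replicates. Intervals are 95% Wilson for levels and Newcombe for differences, and the limit given beside 0 methylated reads is 3 reads of the total. Low runs are at least 4 consecutive CpGs at 30% or less in the non-differentiated library, at most 500 bp apart.

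Members, lists and tests were chosen with earlier results of these data known. Named genes are the 8 members, the 5 called genes of the pathway list with the largest difference for promoters and for bodies, the nearest list gene of each member, and overlapping neighbours. FTL and ICAM4 were named after their values were seen. Some genes that these rules or the marker list name are not reported here. The code was tested on simulated data, with Python 3.11.15, numpy 2.4.6, pandas 2.3.3, numba 0.67.0 and scipy 1.17.1. Alternatives tried were a higher coverage minimum, equal weight per CpG, reads divided by the number of CpGs, CpGs shared by 2 libraries only, other thresholds, other bounds and another reference library.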

Additional observations from a re-analysis of the deposited data

How the results depend on the processing

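No paired analysis was possible because each group had 1 library. With no replicates, differences between libraries of the same group were not measured, and with a mean coverage of 27.2 to 29.7 reads per CpG the promoters of ALAS2 and SLC4A1 rest on 45 to 53 and 108 to 115 reads in the non-differentiated and DMSO libraries. For TFRC 12 of 101 promoter CpGs were listed in all 4 libraries. Of 67 counts of calls recomputed under alternatives 62 stayed within 1.5 times. Most counts on differentiation and with the EED inhibitor compared 0 with 0. Gene body counts with the DNMT1 inhibitor were at or near all bodies tested. The 62 therefore say little on how stable the calls were. An equal count can also hide a change of gene. At a coverage of 20 reads the 2 promoters called with the DNMT1 inhibitor were AHSP and TFRC, of 5 tested, SLC4A1 not among them. With a threshold of 10 points, 1 promoter (AHSP, higher) was called on differentiation, as were 159 of all 18118, 4 were lower with the DNMT1 inhibitor, and 1 window was higher with the EED inhibitor, where 5479 of all 2431792 were called. Promoters from 2000 bp upstream gave 4 called with the DNMT1 inhibitor and those from 500 bp upstream to 200 bp downstream gave 1 (AHSP) of the 5 tested, SLC4A1 not among them, in place of 2 of 7. Over all genes the count lower with the DNMT1 inhibitor was 7916, and it was 12361, 12219 (of 18819) and 4060 (of 14563) under these settings and 3328 after read totals were scaled down by the CpG count. Scaled in that way, every member promoter and body tested on differentiation and with the EED inhibitor had an adjusted p of 1 in Fisher's exact test, and the DNMT1 inhibitor promoter values of TFRC, HEMGN and EPB42 no longer passed 0.01.

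Of 258 single differences recomputed, 235 kept direction and side of the threshold. In the comparison with the DNMT1 inhibitor none changed sign, and TFRC passed the threshold at a coverage of 20 reads (-33.7 points), unweighted (-26.0) and from 2000 bp upstream (-50.5), as did HEMGN from 2000 bp upstream (-33.1). TFRC was smaller over CpGs of both libraries compared (-14.2) and from 500 bp upstream (-10.8). On differentiation AHSP was at 8.12 points with 20 reads (adjusted p = 0.370, Fisher's exact test). The 19 that changed sign lay between -1.94 and 7.75 points after the change, none was called, and the cause was not tested. On differentiation the promoter values became 0.119 points (ANK1), 0.506 (TFRC) and 0.362 (SLC25A37) at 20 reads, 0.690 (HEMGN) and 5.86 (TFRC) unweighted, -1.94 (EPB42) and 1.96 (ANK1) from 2000 bp upstream, and 7.75 (TFRC) from 500 bp upstream. Gene bodies became 0.397 (ALAS2), 0.653 (SLC4A1) and 0.748 (HEMGN) unweighted. With the EED inhibitor promoters became 0.113 (ANK1, unweighted), 1.93 (EPB42, 2000 bp upstream) and 0.372 (ANK1, 500 bp upstream). Bodies became 0.176 (20 reads), 0.409 (unweighted) and 0.328 (main transcript) for ANK1, 0.138 for HEMGN unweighted and 1.63 for ALAS2 over CpGs of both libraries compared. The main transcript in place of the annotated gene, and a coverage of 20 reads for single CpGs, were added after seeing the data.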

Other observations

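The flank downstream of HEMGN held a run of 78 unmethylated CpGs over 2431 bp, at 0.753% in the non-differentiated library and 0.396% with DMSO, over the start of the neighbouring gene TRMO. With this run included, the 5 kb downstream of HEMGN were at 26.5%, 19.9%, 6.73% and 20.3%, against 76.1%, 75.5%, 21.0% and 75.1% in the HEMGN body. EPB42 had a run of 9 low CpGs from -4733 to -4457 bp, at 3.11% with DMSO. Upstream of SLC4A1 a run of 4 CpGs from -1890 to -1553 bp was at 12.3%, 24.6%, 1.25% and 18.1%. The 5 kb downstream of SLC25A37 were at 72.8%, 67.5%, 15.5% and 73.9% in the same order, which was not tested.

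Among the member windows the smallest p in the EED inhibitor comparison was in ANK1, 3122 bp downstream of the main start, at 10.8% with DMSO and 3.54% with the EED inhibitor (adjusted p = 0.000279, Fisher's exact test). A TFRC window 59590 bp downstream of the start went from 46.9% to 59.5% (adjusted p = 0.00827, Fisher's exact test). The ANK1 window 5122 bp downstream went from 3.40% to 7.56% (adjusted p = 0.0149, Fisher's exact test). All 3 were under 25 points.

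By the mean absolute difference over promoter and gene body levels in the 4 libraries, among 57 pathway genes, the nearest to SLC4A1 was AQP1 (6.47 points), to EPB42 ATP2B4 (1.31 points), to ANK1 TFR2 (1.20 points), to HEMGN DMTN (1.95 points), to TFRC SLC2A1 (3.94 points) and to SLC25A37 SPTB (1.06 points). These are descriptions over 8 levels that share the same 4 libraries.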
